A study of Solanum lycopersicum with 21 samples.

Results

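Leaves of tomato sprayed with jasmonic acid (JA) were compared with leaves sprayed with water on the GeneChip Tomato Gene ST array. The comparison took the 3 JA arrays and the 3 non-treated control (NTC) arrays of the first of 2 experiments, that is 6 of the 21 arrays of the series, and all 67795 probe sets in both directions. A probe set is the group of short probes that reads a single transcript. Plants of cv. Rio Grande were grown in rockwool under greenhouse conditions and treated 2 weeks after transplanting. JA plants received JA at 2.5 mM to run-off and NTC plants distilled water, and leaves were taken 24 h later. Each array held the RNA of 10 pooled plants, so a replicate is a pool, and in such leaf RNA fewer cells of a type and less of a transcript per cell cannot be told apart. Beside JA, experiment 1 held salicylic acid (SA) at 2.5 mM, ethylene (Et) released from ethephon at 1 mM and the peptide BP178 at 125 µM. Experiment 2 held the flagellin peptide flg15 at 125 µM with 3 NTC arrays of its own (NTC e2). The values are RMA-normalized log2 intensities, in which a difference of 1 is a doubling. A transcript was called higher at a fold change (FC) of at least 2, or lower at an FC of at most 0.5, with an adjusted p below 0.05 from limma.

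JA is made in plastids and peroxisomes from linolenic acid, by lipoxygenase, allene oxide synthase, allene oxide cyclase and a reductase of the intermediate OPDA, followed by beta-oxidation. Its conjugate with isoleucine binds the F-box protein COI1, JAZ repressors are then degraded, and the MYC2 transcription factor is freed. In tomato leaves the pathway is known for the wound response, in which proteinase inhibitors and other proteins that impair insect digestion accumulate.

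After JA, 1109 transcripts were called higher, or 1.64% of all probe sets, and 1153 were called lower, or 1.70%. The median log2 FC over all probe sets was 0.02. Increases were the larger ones. The called increases had a median log2 FC of 1.58 and reached 7.80, and 68 of them were at 4 or more. The called decreases had a median of -1.32 and reached -4.44, and 4 of them were at -4 or below. In 1100 of the 1109 increases the 3 JA arrays were all above the 3 NTC arrays, and in 1144 of the 1153 decreases all below. Over all probe sets the JA arrays were all above in 11.9% and all below in 11.1%. The calls were made on these same arrays, so the lack of overlap is no further evidence for them. Of the 23194 probe sets with a single gene symbol 905 were higher (3.90%) and 936 lower (4.04%), and of the 44431 without a symbol 200 were higher (0.450%) and 213 lower (0.479%). Among the 950 probe sets with a symbol that is a gene name and not a bare locus number, 83 were higher (8.74%) and 47 lower (4.95%), and these shares are the background for the gene lists below.

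The control arrays were not all alike. NTC replicate 3 was the highest of the 3 NTC arrays of experiment 1 in 30.5% of all probe sets, but in 62.8% of the 1109 increases and in 54 of the 68 increases at a log2 FC of 4 or more. Without it, 1187 transcripts were higher and 1220 lower. NTC replicate 2 was the highest NTC array in 790 of the 1153 decreases, against 21623 of all 67795 probe sets, and without it 954 transcripts were lower and 1066 higher. What set these arrays apart was not tested. The NTC arrays of the 2 experiments also differed, with 631 transcripts higher (0.931%) and 579 lower (0.854%) in experiment 1 than in experiment 2. Of the 1109 increases, 908 were also called against NTC e2 and none was called in the other direction. Of the 1153 decreases, 756 were also called and 17 were called higher against NTC e2. The leaf markers were bright in both groups. A chlorophyll a/b-binding protein, CAB4, lay between 12.12 and 12.40 after JA and between 12.50 and 12.54 in NTC, whereas the fruit transcripts PG2 and 2A11 and the flower and anther transcripts TAPG4 and TDR8 lay below 2.5 on every JA and NTC array. Psy1, of the fruit marker list as well, is given with the carotenoids.

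Transcripts of JA synthesis itself were higher after JA spraying. The steps from the lipoxygenase to the OPDA reductase each had a member called higher, and in the list of 12 probe sets 5 were higher and none lower, with a median log2 FC of 0.67. The lipoxygenase loxD, which oxidizes linolenic acid for this route, had 9.50, 9.45 and 9.56 after JA, against 7.06, 6.75 and 7.24 in NTC (log2 FC 2.49, SE 0.172, adjusted p = 5.88e-09). Allene oxide synthase, aos, had 9.01, 8.86 and 9.02 after JA, against 5.42, 4.46 and 5.78 in NTC (log2 FC 3.74, SE 0.307, adjusted p = 6.2e-08). In both genes every JA array was above every NTC array, and the JA arrays lay closer together than the NTC arrays. A second allene oxide synthase, Solyc11g069800, had 10.61, 10.42 and 11.02 after JA, against 7.51, 7.35 and 8.38 in NTC (log2 FC 2.94). It was identified through the list that the study had selected after SA on these arrays, so its call is no independent evidence.

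Allene oxide cyclase, aoc, had 11.14, 11.06 and 11.12 after JA, against 8.60, 8.35 and 9.40 in NTC (log2 FC 2.32, SE 0.203, adjusted p = 1.37e-07). The reductase opr3, which acts on OPDA in peroxisomes, had 10.50, 10.39 and 10.44 after JA, against 8.17, 8.06 and 8.60 in NTC (log2 FC 2.16, SE 0.167, adjusted p = 2.66e-08). For these transcripts the increase was therefore between about 4.48-fold (opr3) and 13.4-fold (aos). Acx1A, an acyl-CoA oxidase of beta-oxidation, had 7.95, 8.02 and 8.19 after JA, against 7.18, 7.11 and 7.40 in NTC, and passed the p threshold (log2 FC 0.82, adjusted p = 0.000301) but not the FC threshold. The other lipoxygenases of the plastid, loxC and loxF, did not pass the test (log2 FC 0.52 and -0.46, adjusted p = 0.398 and 0.399). Neither did OPR1, opr2, Acx1B or the desaturase Fad7, whose log2 FC lay between -0.38 and -0.14. Among the lipoxygenases and the reductases of this list a single member each was called. In 10 of the 12 probe sets NTC replicate 3 was the highest NTC array, and without it the log2 FC of aos was 4.02 and that of loxD 2.60. Outside this route, 1 of 6 probe sets of other oxylipin branches was higher, the lipoxygenase LOX1.1 (log2 FC 1.29, adjusted p = 1.45e-05). Against NTC e2 the log2 FC was larger for loxD (3.95) and aos (5.65). In these 2 genes the NTC arrays of experiment 1 were themselves above those of experiment 2, by 1.46 and 1.91. The list as a whole did not move that way. Against NTC e2, 6 of the 12 were higher and 1 was lower, with a median of 0.66. There Acx1A was called higher (1.49) and loxF lower (-2.14). Among the 11 found by symbol the median was -0.18, where it was 0.51 over the NTC of experiment 1.

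**Figure D1:**
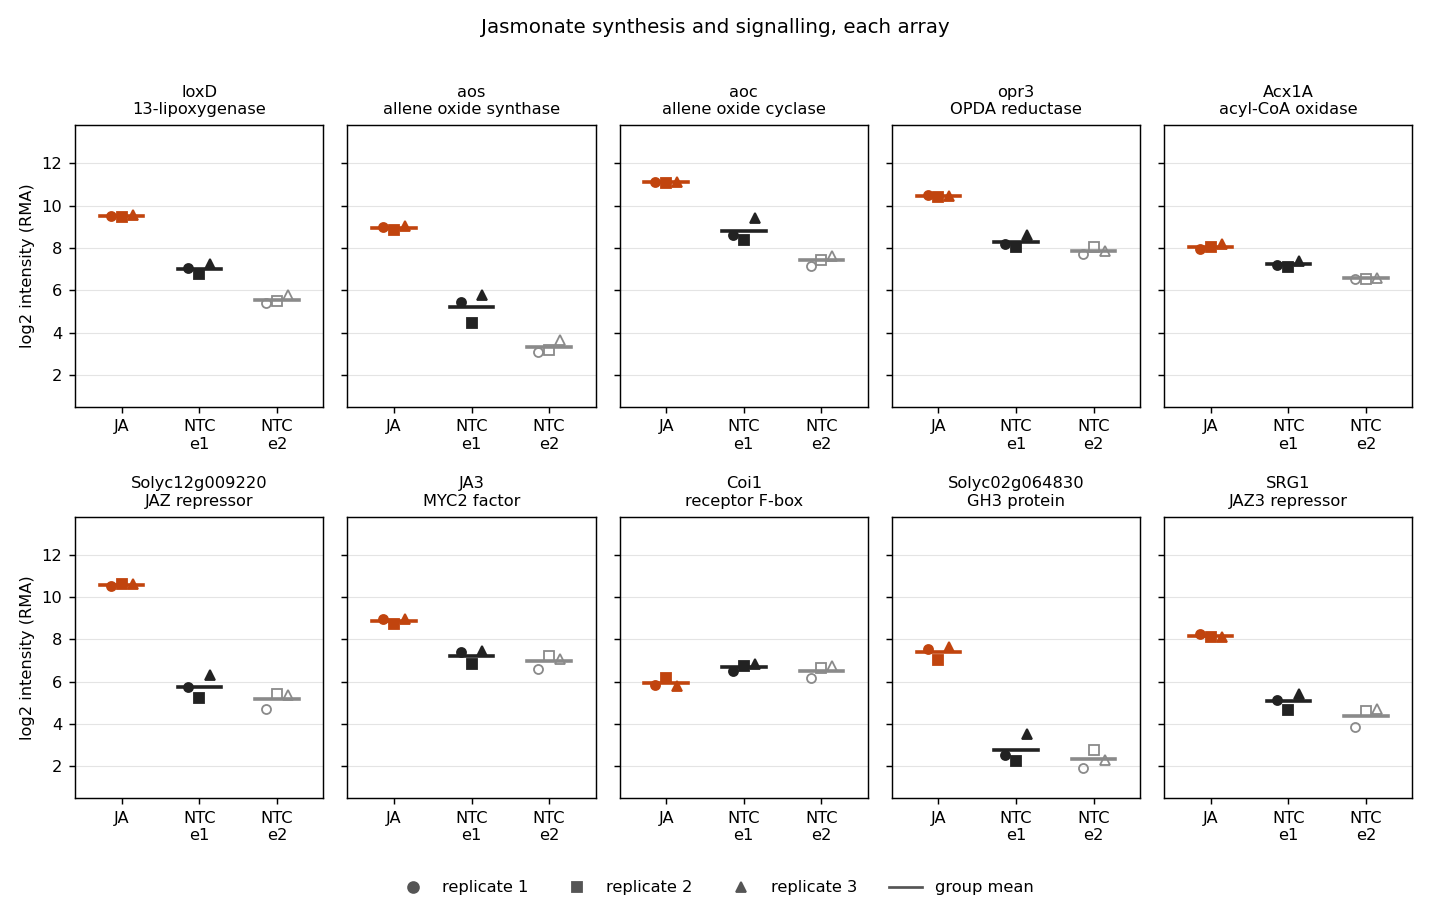
Log2 intensity (RMA, vertical axis) of 10 transcripts of JA synthesis and signalling on each JA array, each NTC array of experiment 1 (NTC e1) and each NTC array of experiment 2 (NTC e2), with the replicate number as marker shape and the group mean as a line. The JA arrays lie above both NTC groups in all panels but that of Coi1, where they lie below the NTC arrays of experiment 1.

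Regulators of the pathway were also higher, on the side of repression as well as of activation. Of 12 probe sets of JA signalling and turnover, 9 were higher and none lower, with a median log2 FC of 1.80. Of these, 7 were found by array symbol, of which 4 were higher, and the other 5 were all higher. Those others were found by names given to transcripts that had been chosen for their change after SA over the same NTC arrays, so their calls are no independent evidence. The JAZ repressor Solyc12g009220 had 10.53, 10.61 and 10.61 after JA, against 5.73, 5.24 and 6.32 in NTC (log2 FC 4.82, SE 0.246, adjusted p = 9.34e-11). A second JAZ repressor, carried by the array as SRG1 and named JAZ3 in RefSeq, had 8.24, 8.11 and 8.12 after JA, against 5.13, 4.65 and 5.41 in NTC (log2 FC 3.10, SE 0.241, adjusted p = 2.96e-08). On the linear scale these were increases of 28.3-fold and 8.56-fold, and the JA arrays of each repressor lay within 0.2 of each other.

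MYC2, carried as JA3, had 8.94, 8.71 and 8.94 after JA, against 7.40, 6.83 and 7.42 in NTC (log2 FC 1.64, SE 0.177, adjusted p = 2.12e-06). The bHLH factor bHLH1 was higher by a log2 FC of 1.19 (adjusted p = 0.0021), and the NAC factor JA2 by 1.02 (adjusted p = 0.00142), just past the threshold. JA2 lost its call without JA replicate 3 (0.87) and without NTC replicate 1 (0.92) or 2 (0.88). The receptor component Coi1 ran the other way. It had 5.82, 6.17 and 5.80 after JA, against 6.48, 6.73 and 6.81 in NTC, with no overlap, but its log2 FC of -0.74 (adjusted p = 0.00843) did not reach the FC threshold. JERF1 and JA1 were not called (log2 FC 0.66 and 0.32).

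Enzymes of families that conjugate or oxidize the hormone were among the larger increases. The GH3 proteins, which join amino acids to hormones, had a log2 FC of 4.64 for Solyc02g064830 and 4.17 for Solyc01g107390. The first had 7.54, 7.03 and 7.62 after JA, against 2.51, 2.26 and 3.51 in NTC, and both were named after the auxin-conjugating members of the family. Of 2 cytochrome P450s named as CYP94A1-like, from a family that includes oxidases of the isoleucine conjugate, LOC101262529 was higher by 3.83 and LOC101246836 by 1.96. LOC101262529 was dim in NTC, at 2.13, 2.02 and 2.05, and had 5.59, 5.75 and 6.33 after JA.

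Proteins that act against feeding insects had the highest median log2 FC of the lists. Of 21 probe sets of 20 genes, 18 were higher, none was lower and the median log2 FC was 3.29. Of the 12 found by array symbol 9 were higher, and all 9 found by the study's names were higher, which is no independent evidence since the study had chosen those on arrays of this series. On each of the 21 probe sets all JA arrays were above all NTC arrays, which over all probe sets was the case in 11.9%. The 3 probe sets that were not called were the arginase ARG1 (log2 FC 0.26), the neutral leucine aminopeptidase LAPA2 (0.14) and a second probe set of the polyphenol oxidase LOC101259357, which passed the p threshold but not the FC threshold (0.91, adjusted p = 0.000304). In 18 of the 21 the highest NTC array was replicate 3, which lay above the mean of the other NTC arrays by a median of 1.07. Without that array 18 were again higher, and the median was 3.84.

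The inhibitors of proteinases came first. Proteinase inhibitor I (LOC101247857, Solyc09g084480), which blocks chymotrypsin-like enzymes of the insect gut, had 11.76, 11.73 and 11.55 after JA, against 2.85, 2.53 and 6.27 in NTC (log2 FC 7.80, SE 0.688, adjusted p = 1.46e-07). The JA arrays agree to within 0.3 while NTC replicate 3 lay more than 3 above the other NTC arrays, and without it the log2 FC was 8.99. The metallocarboxypeptidase inhibitor mcpi had 10.85, 10.95 and 10.84 after JA, against 2.86, 3.12 and 7.17 in NTC (log2 FC 6.50, SE 0.735, adjusted p = 3.82e-06). It showed the same split of the NTC arrays, with a log2 FC of 7.89 without replicate 3. The type II inhibitor cevi57 had 8.28, 8.43 and 9.30 after JA, against 2.08, 2.09 and 2.33 in NTC (log2 FC 6.50, SE 0.218, adjusted p = 3.81e-13), and here the NTC arrays lay together at a level near the dimmest on the array. PIIF, the wound-induced inhibitor I of the array annotation, had 4.97, 5.70 and 5.08 after JA, against 1.61, 1.73 and 2.53 in NTC (log2 FC 3.29, SE 0.226, adjusted p = 5.52e-09).

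The Kunitz inhibitors, a separate family that blocks trypsin-like enzymes, ranged more widely. LOC101261997 had 9.13, 9.54 and 9.44 after JA, against 1.98, 1.84 and 2.98 in NTC (log2 FC 7.10, SE 0.307, adjusted p = 9.17e-12). Its neighbours LOC101262296, LOC101244562 and LOC101262903 had a log2 FC of 2.08, 2.81 and 2.87, and Solyc03g020010 had 3.28. The chymotrypsin inhibitor ER1, first described as an ethylene-responsive gene, had 7.40, 7.33 and 8.05 after JA, against 3.57, 3.01 and 2.98 in NTC (log2 FC 4.41, SE 0.246, adjusted p = 3.49e-10).

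Of enzymes that spoil the diet rather than block digestion, threonine deaminase, an arginase and an acidic leucine aminopeptidase were higher, while their relatives ARG1 and LAPA2 were not called. Threonine deaminase, Td, which removes threonine in the gut, had 12.59, 12.51 and 12.66 after JA, against 8.65, 8.83 and 10.71 in NTC (log2 FC 3.19, SE 0.528, adjusted p = 0.000317). The arginase ARG2, which removes arginine, had 9.75, 9.51 and 9.81 after JA, against 4.59, 4.86 and 6.71 in NTC (log2 FC 4.30, SE 0.423, adjusted p = 6.12e-07). Its paralog ARG1 lay between 2.94 and 3.32 after JA, against 2.71 to 2.91 in NTC. The leucine aminopeptidase lap2, named LAPA1 in RefSeq, had 10.61, 11.17 and 11.08 after JA, against 7.17, 6.61 and 8.59 in NTC (log2 FC 3.50, SE 0.409, adjusted p = 5.8e-06), while LAPA2 lay between 8.97 and 9.01 after JA, against 8.78 to 8.95 in NTC. Without NTC replicate 3 the log2 FC was 3.84 for Td, 4.97 for ARG2 and 4.06 for lap2. So in both enzyme families a single member was called and the other was not, and the difference between the members was not tested.

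Polyphenol oxidases, which oxidize phenolics in damaged tissue to compounds that bind protein, were higher in 3 of the 4 probe sets. LOC101259064 had 11.51, 11.28 and 11.65 after JA, against 6.58, 6.97 and 8.83 in NTC (log2 FC 4.01, SE 0.477, adjusted p = 6.85e-06). LOC101258176 had 7.36, 7.30 and 8.27 after JA, against 2.93, 2.50 and 3.04 in NTC (log2 FC 4.82, SE 0.227, adjusted p = 3.13e-11). LOC101259357 was higher by 2.30 on the brighter of its 2 probe sets. The NTC arrays of LOC101258176 lay together, while in LOC101259064 replicate 3 stood above the others, and the log2 FC without it was 4.70.

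**Figure D2:**
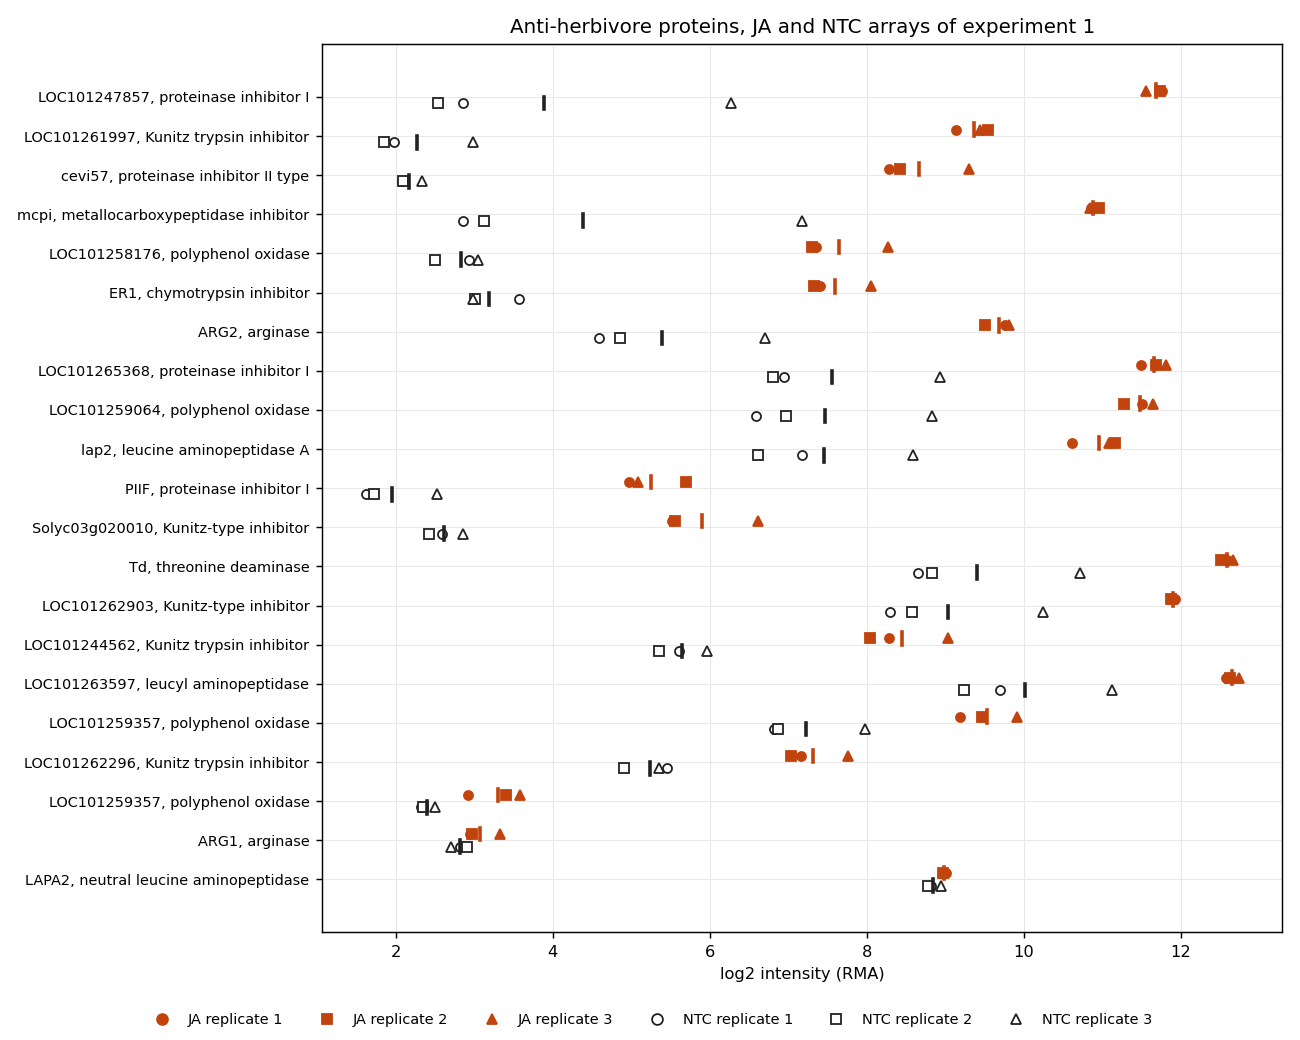
Log2 intensity (RMA, horizontal axis) of the 21 probe sets of anti-herbivore proteins, one row each in order of log2 FC, with JA arrays as filled markers on the upper line and NTC arrays of experiment 1 as open markers on the lower line of each row, the shape giving the replicate and the short bar the group mean. NTC replicate 3 (open triangle) is the highest NTC array in 18 of the 21 rows and is separated from the other NTC arrays in proteinase inhibitor I (6.27) and mcpi (7.17).

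Several of the largest increases were next to each other in the genome. In the RefSeq gene order of chromosome 9, a window of 31 genes around PIIF held 23 genes with a probe set of their own, of which 12 were higher, none was lower and 11 had a log2 FC of at least 3. The run began 5 genes before PIIF and ended 9 genes after it. Next to PIIF stood LOC101247857 (7.80) and LOC101248423 (6.05), and further along stood LOC101265368 (4.11), LOC101266266 (6.62), LOC101266562 (5.79), LOC101266868 (6.85) and LOC101267162 (3.11). Without NTC replicate 3 the log2 FC was 7.35 for LOC101248423, 7.23 for LOC101266266, 6.62 for LOC101266562 and 8.18 for LOC101266868. In the same run LOC101265677 was not called (0.09), and on either side the next genes with a probe set were not called, LOC101246663 with 0.25 and LOC101258410 with 0.53. Of these genes the sources used here name only PIIF, LOC101247857 and LOC101265368, all as inhibitors of type I.

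On chromosome 3, a window of 23 genes around the Kunitz gene LOC101261997 held 15 with a probe set, of which 7 were higher and 2 lower. A run of 6 neighbours was higher without a gap, with a log2 FC of 7.73 for LOC101244265, 7.10 for LOC101261997, 2.08, 2.81, 6.76 for LOC101263388 and 2.87. CEVI57 lay 10 genes from LOC101261997 (6.50), and 5 genes between the end of the run and CEVI57 had no probe set with a symbol of their own. Both windows were drawn after the values were seen and are a description. Over whole chromosomes, the share of probe sets with 1 symbol called higher lay between 2.42% on chromosome 11 and 4.23% on chromosome 3, against 3.90% for all probe sets with 1 symbol. Neighbours of a family can be similar in sequence, and whether probes of one gene also read another was not tested.

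**Figure D3:**
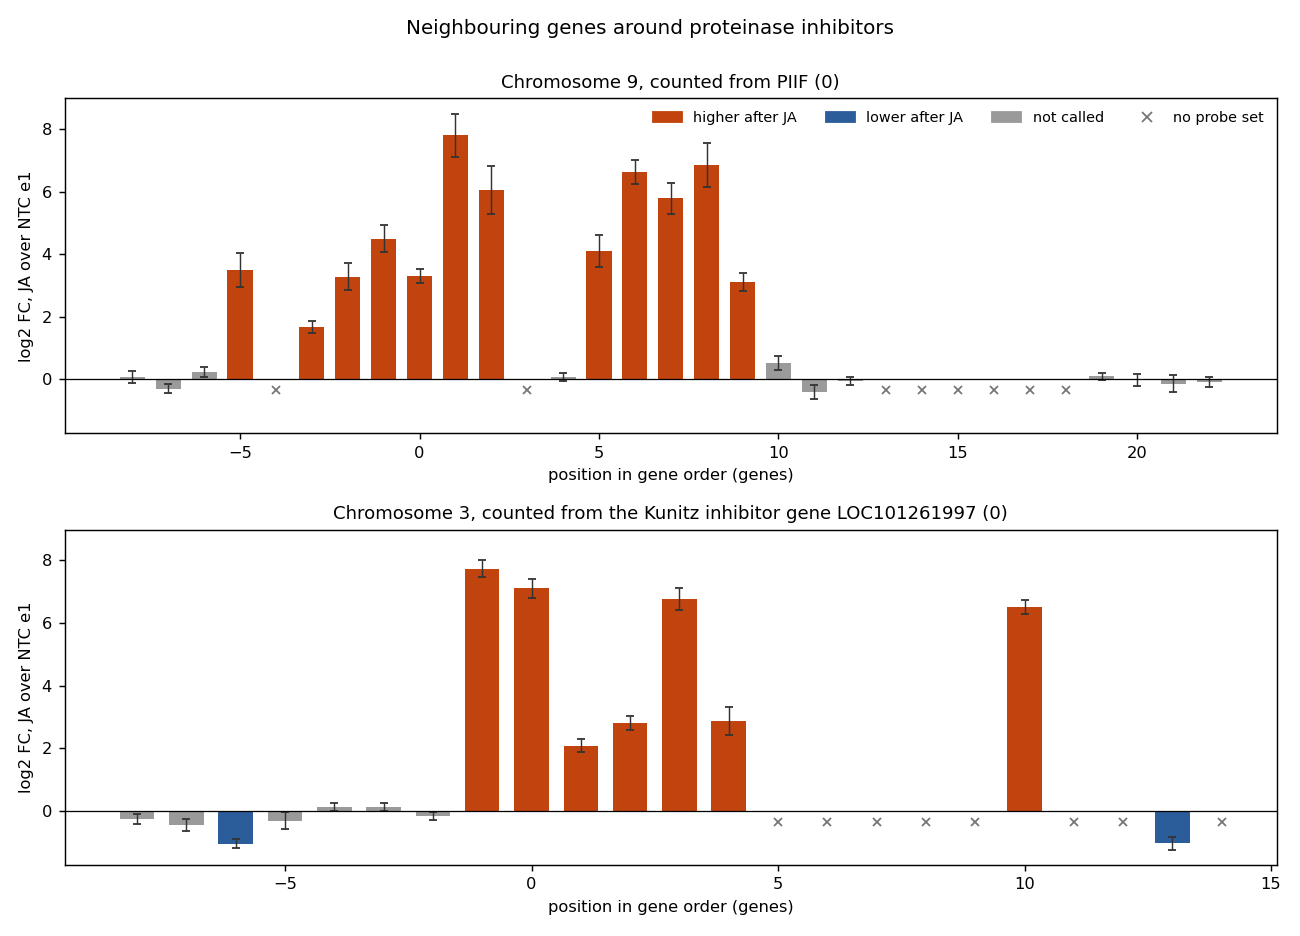
Log2 FC of JA over NTC of experiment 1 (vertical axis, bars with SE) for genes in the RefSeq order of chromosome 9 (upper panel) and chromosome 3 (lower panel), by position in genes from PIIF and from LOC101261997, with crosses for genes without a probe set of their own. A run of 12 higher genes surrounds PIIF with a single uncalled gene among them, and 6 adjacent higher genes start next to LOC101261997.

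Large increases lay outside the windows too, in genes that the sources used here do not name. LOC543570 of chromosome 6 had 10.54, 10.79 and 10.42 after JA, against 2.48, 2.24 and 5.89 in NTC (log2 FC 7.05, SE 0.733, adjusted p = 1.26e-06), with NTC replicate 3 apart as in proteinase inhibitor I, and 8.23 without it. LOC101260309 of chromosome 12 was higher by 6.14 and LOC101265973 of chromosome 10 by 5.75, and in both the NTC arrays lay within 1 of each other.

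In specialised metabolism, single genes of polyamine and terpene synthesis were called higher. Of 7 probe sets of polyamine synthesis, 3 were higher and none lower. Ornithine decarboxylase, ODC, which makes putrescine, had 9.85, 10.59 and 10.27 after JA, against 8.64, 8.96 and 9.07 in NTC (log2 FC 1.35, adjusted p = 0.00017). Spermidine synthase, spdsyn, had 10.60, 10.75 and 10.49 after JA, against 8.62, 8.48 and 9.12 in NTC (log2 FC 1.87, SE 0.144, adjusted p = 2.3e-08). In both genes all JA arrays were above all NTC arrays. The spermine synthase type gene spe4 was higher by 1.26.

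Of 15 probe sets of terpene and isoprenoid synthesis, 4 were higher and 1 was lower. By array symbol these were 2 higher and 1 lower of 13, with a median log2 FC of 0.19, and the other 2, both higher, had been selected by the study on these arrays. The terpene synthases MTS2, TPS16, TPS17 and TPS31 were not called (log2 FC 0.15, -0.02, 0.42 and 0.19). An ocimene synthase, Solyc01g105920, whose product is a volatile of attacked leaves, had 9.08, 8.98 and 8.79 after JA, against 5.51, 4.86 and 6.94 in NTC (log2 FC 3.18, SE 0.384, adjusted p = 8.05e-06). The linalool synthase MTS1 had 4.26, 6.02 and 4.94 after JA, against 2.05, 2.11 and 2.43 in NTC (log2 FC 2.88, SE 0.282, adjusted p = 6.08e-07). Its JA arrays spread more widely than those of the JA pathway genes, but none reached the NTC arrays. The diterpene synthase LOC101262489 was higher by 2.61. Farnesyl diphosphate synthase, FPS1, was higher by 1.16, and lost its call without JA replicate 2 (0.98) or NTC replicate 1 (1.00). dxs, the entry enzyme of the plastid isoprenoid route, was lower (log2 FC -1.06, adjusted p = 0.00013), but not called without JA replicate 3 (-0.97) or against NTC e2 (-0.59). Without NTC replicate 3 the ocimene synthase had a log2 FC of 3.76.

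In the list of sterols and glycoalkaloids 1 of 9 was called, the triterpene synthase TTS2 (log2 FC -1.30). GAME1, a glycosyltransferase of glycoalkaloid synthesis, had 9.64, 9.57 and 9.02 after JA, against 9.70, 9.64 and 10.10 in NTC (log2 FC -0.40, adjusted p = 0.407), and the groups overlapped. The hydroxycinnamoyl transferase THT1-3, which makes phenolic amides of the cell wall, was higher by 2.60 (adjusted p = 1.4e-05), the only call among 9 probe sets of phenolic amides and lignin. LOC101248628, named as an anthocyanidin synthase or leucoanthocyanidin dioxygenase-like protein, was among the largest increases, with 11.22, 10.97 and 11.34 after JA, against 4.91, 4.26 and 6.63 in NTC (log2 FC 5.91, SE 0.457, adjusted p = 2.66e-08), or 6.60 without NTC replicate 3. The anthocyanidin synthase of the flavonoid list, Solyc08g080040, was lower and is given with that list.

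Pathogenesis-related (PR) proteins, which are often taken as markers of the SA and ethylene pathways, were higher in part. Of 25 probe sets 14 were higher and 1 was lower, with a median log2 FC of 1.59. By array symbol, 4 of 15 were higher and 1 was lower, with a median of 0.35, and the other 10 had been selected by the study, so their calls are no independent evidence. Carried by symbol, PR-1a1 (log2 FC 0.06), PR1b1 (0.35), P4 (0.13), PR-5 (0.32) and PR-P2 (0.50) were not called. The chitinase CHI3, which degrades fungal cell walls, had 12.18, 11.94 and 12.22 after JA, against 9.24, 7.91 and 10.42 in NTC (log2 FC 2.92, SE 0.353, adjusted p = 8.16e-06), or 3.54 without NTC replicate 3. An osmotin-like protein of the PR5 family, Solyc08g080640, had 10.89, 10.92 and 11.27 after JA, against 7.90, 7.14 and 7.58 in NTC (log2 FC 3.49, SE 0.299, adjusted p = 1.05e-07). A PR1a transcript from the study's lists, LOC100191111, had 8.87, 8.74 and 9.33 after JA, against 7.43, 6.28 and 6.30 in NTC (log2 FC 2.31, SE 0.322, adjusted p = 4.58e-05). No JA array of these transcripts overlapped with NTC.

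Among other PR proteins, the endochitinase Solyc02g061770 was higher by 4.58, the PR5 proteins LOC101264959 and LOC543878 by 2.95 and 2.64, the ribonuclease rnale by 2.90 and the beta-glucanase LOC101261650 by 1.86, and the subtilase PR-P69 was lower (log2 FC -1.35, adjusted p = 0.000989), but not against NTC e2 (-0.36). The NTC of experiment 1 was above that of experiment 2 by 3.62 in LOC101261650, 3.81 in Solyc08g080640 and 3.10 in CHI3, so in these the NTC differed between the experiments by more than JA differed from its NTC. Of 10 probe sets of SA signalling 3 were higher, all WRKY factors, with a log2 FC of 2.82 for WRKYIIe-1, 1.46 for WRKYIId-4 and 1.15 for WRKY3, the last not called without NTC replicate 2 (0.97). Against NTC e2 WRKYIId-4 (0.60) and WRKY3 (0.51) were not called. The regulator NIM1, tomato NPR1, was not called (log2 FC -0.58, adjusted p = 0.0275).

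For ethylene, 3 of 10 probe sets of synthesis were higher, and 7 of the 10 lay at or below the median level of all probe sets. The ACC synthase ACS6, which makes the precursor of ethylene, had 6.77, 7.27 and 7.46 after JA, against 4.26, 4.09 and 4.57 in NTC (log2 FC 2.86, SE 0.33, adjusted p = 4.84e-06). ACS3 was higher by 1.51 and ACO1 by 1.38, and the call of ACS3 was lost without JA replicate 3 (1.04) and without NTC replicate 2 (1.48) or 3 (1.47), and against NTC e2 (0.19). In ethylene signalling 5 of 22 were higher and none lower. These were the transcription factors ERF1 (2.25), DREB3 (1.62), EIL1 (1.49) and EIL3 (1.28) and the receptor ETR4 (1.76). A second probe set of ERF1 was not called (-0.05), and DREB3 was not called against NTC e2 (0.84).

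JA was then set beside the other treatments of experiment 1. All log2 FC over NTC below use the same 3 NTC arrays, so they are given side by side, and the test is that of the direct difference between the treated arrays. Over all probe sets, 4.01% were higher and 4.36% lower in JA than in SA at an adjusted p below 0.05, 2.79% were higher and 4.73% lower in JA than in Et, and 2.65% were higher and 4.39% lower in JA than in BP178. Of the 1109 increases after JA, 660 were higher in JA than in SA and 145 lower. Against Et these counts were 722 and 56, and against BP178 they were 939 and 1. In 490 of the 1109 the JA arrays were above SA, Et and BP178 in all 3 tests. The increases had been selected with the same JA arrays, which favours JA in these counts. Of the 1153 decreases, 371 were lower in JA than in SA and 37 higher, while 745 did not pass the test, and 719 were lower in JA than in Et and 16 higher.

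Anti-herbivore proteins differed between the hormones. Of their 21 probe sets, 16 were higher and 2 lower in JA than in SA, and 19 were higher and none lower in JA than in Et, with a median difference of 4.13 from SA and 4.28 from Et. With the response to flg15, taken over NTC e2, 12 of the 21 were more strongly higher after JA and none less, where over all probe sets 1.85% were higher and 1.40% lower for JA. The log2 FC of Td was 3.19 after JA, -2.48 after SA and -1.28 after Et. That of LOC101259064 was 4.01 after JA, -1.66 after SA and -3.11 after Et, and that of mcpi was 6.50, -2.20 and -1.56 in the same order. Over NTC, mcpi did not pass the test after SA or Et (adjusted p = 0.0693 and 0.337), nor did Td after Et (adjusted p = 0.242). The high NTC replicate 3 enters these values. In mcpi the Et arrays had 3.08, 2.70 and 2.68, against 2.86, 3.12 and 7.17 in NTC. In Td the treated arrays differed by 5.67 between JA and SA (adjusted p = 1.7e-07). Exceptions were found in Kunitz inhibitors. Solyc03g020010 was higher by 3.28 after JA and by 7.03 after SA, a difference of -3.75 (adjusted p = 5.9e-10), and LOC101244562 by 2.81 after JA and 4.40 after SA. ER1 was higher by 4.41 after JA and 3.28 after Et, a difference of 1.13 (adjusted p = 0.0054).

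In JA synthesis, the log2 FC of loxD was 2.49 after JA, 0.33 after SA and -1.99 after Et, and that of aos was 3.74, 1.89 and -1.25 in the same order. The JAZ gene Solyc12g009220 had 4.82 after JA, 2.60 after SA and -1.25 after Et. So on average SA plants stood between JA and the NTC of experiment 1 in aos and in this JAZ gene, and Et plants stood below that NTC. In aos Et replicate 1 (4.52) overlapped with NTC replicate 2 (4.46), and the Et mean of 3.97 was above the NTC e2 mean of 3.31. In the JAZ gene the Et mean of 4.51 was below the means of NTC in experiment 1 (5.76) and NTC e2 (5.17). JAZ3 had 3.10 after JA, 0.72 after SA and -0.02 after Et. Of the 12 probe sets of JA signalling and turnover, 5 were higher and 3 lower in JA than in SA. The other 4 did not pass the test. Over NTC, 7 were called higher and 1 lower after SA. By array symbol these were 2 higher and 1 lower of 7, and the other 5 had been chosen for their change after SA. JA2 had 1.02 after JA and 3.03 after SA, a difference of -2.01 (adjusted p = 3.3e-07). In the GH3 gene Solyc02g064830 the difference of 0.765 did not pass (adjusted p = 0.122). CYP94A1-like LOC101262529 had 3.83 after JA and 3.81 after SA, and LOC101246836 had 1.96 after JA and 4.33 after SA, a difference of -2.38 (adjusted p = 3.5e-08). ODC had 1.35 after JA, -0.84 after SA and -2.05 after Et. Of 25 PR probe sets, 10 were higher and 3 lower in JA than in SA, and 5 were higher and 1 lower in JA than in Et.

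Of the differences in the other direction, the largest from SA was that of LOC101244399, an aspartic proteinase, which was lower after JA (-2.40) with 3.08 after SA, but was not called against NTC e2 (0.20). LOC101249464, a short-chain dehydrogenase, was higher by 1.32 after JA and 6.68 after SA. The alternative oxidase LOC543825, a mitochondrial bypass of the electron chain, was higher by 1.23 after JA and 6.08 after SA, and its JA call was lost without JA replicate 3 (0.91). LOC101247838, named as a glycerol-phosphate acyltransferase, was lower after JA (-1.16) with a log2 FC of 4.24 after SA, and LOC101258450, named as a hydrolase, was lower after JA (-1.11) with 3.96 after SA. LOC101258450 was not called without NTC replicate 3 (-0.96) or without JA replicate 2. Against Et the largest was LOC101256767, with 1.20 after JA and 6.53 after Et, whose JA call was also lost without JA replicate 3 (0.94). LOC101247128 was lower after JA (-2.19) with 1.43 after Et, and LOC101243699 was at -1.14 after JA and 2.96 after Et, its JA call being lost in 4 of the 6 fits that left out an array and with the arrays centred on their medians (-1.15). LOC101251407 was at -4.31 after JA and -0.30 after Et. MIOX, which oxidizes myo-inositol on a route to wall precursors, had 8.82, 8.19 and 9.17 after JA, against 1.50, 1.60 and 1.96 in NTC (log2 FC 7.04, SE 0.309, adjusted p = 1.08e-11). It was higher by 5.72 after Et and lay at 0.39 after SA, and JA was above Et by 1.32 (adjusted p = 0.0094).

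**Figure D4:**
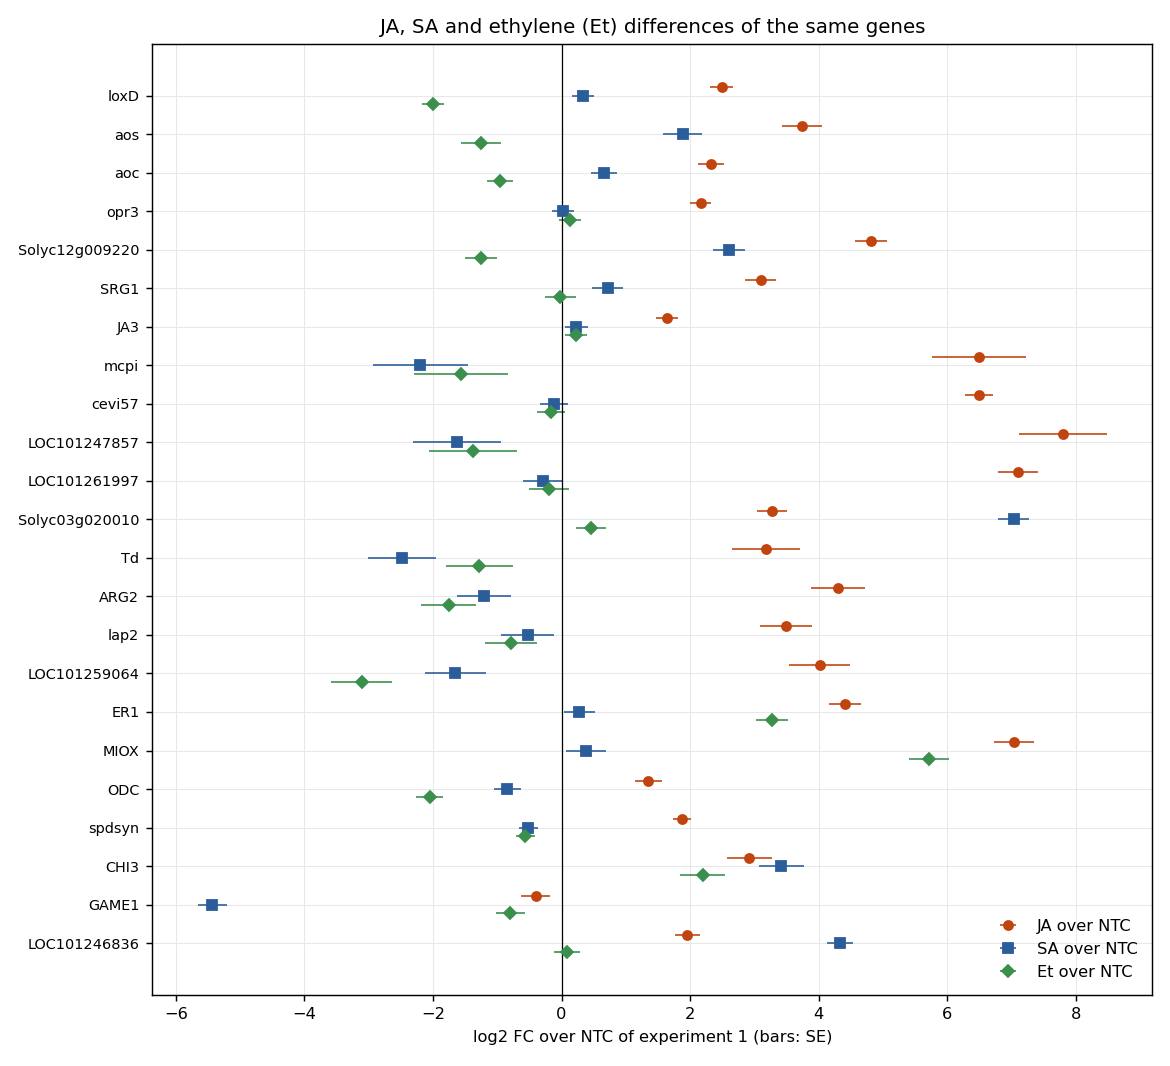
Log2 FC over the NTC of experiment 1 (horizontal axis, points with SE bars) of 23 transcripts after JA (circles), SA (squares) and Et (diamonds), which share the same 3 NTC arrays. JA points lie to the right of the others for most JA synthesis and anti-herbivore transcripts, while Solyc03g020010 and LOC101246836 lie further right after SA and GAME1 is at -5.44 after SA only.

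Decreases after JA included pigment genes. Of 7 probe sets of flavonoid synthesis 5 were lower and none higher, with a median log2 FC of -1.89. By array symbol 3 of 5 were lower, with a median of -1.52, and the other 2, both lower, had been selected by the study on these arrays. Chalcone synthase CHS1, the entry enzyme, had 6.50, 6.80 and 5.65 after JA, against 8.22, 7.94 and 8.47 in NTC (log2 FC -1.89, SE 0.304, adjusted p = 0.000229). Anthocyanidin synthase Solyc08g080040 had 4.47, 4.46 and 4.17 after JA, against 7.43, 7.19 and 7.68 in NTC (log2 FC -3.07, SE 0.242, adjusted p = 3.48e-08). Dihydroflavonol reductase Solyc02g085020 was lower at -2.78, CHS2 at -1.89 and the hydroxylase F3H at -1.52. The JA arrays lay below the NTC arrays of experiment 1 in each of these genes.

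These decreases depended on the control. In NTC e2 CHS1 had 4.52, 5.12 and 5.20 and Solyc08g080040 had 2.51, 3.14 and 3.02, so the JA arrays lay above them. Against NTC e2 none of the 7 was lower, 4 were higher, and the log2 FC was 1.37 for CHS1, 1.70 for F3H, 1.47 for Solyc08g080040, 2.46 for Solyc02g085020 and -0.10 for CHS2. The NTC of experiment 1 was above that of experiment 2 by between 1.79 (CHS2) and 5.25 (Solyc02g085020). The same genes were lower after SA (-2.05 for CHS1 and -2.49 for Solyc08g080040) and after Et (-1.53 and -2.52) over the same NTC, and at an adjusted p below 0.05 none of the 5 differed between JA and SA or between JA and Et.

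Carotenoid genes were lower in 4 of 13 probe sets. Phytoene synthase, the first committed enzyme, had 2 called genes. PSY2 had 6.84, 6.86 and 6.59 after JA, against 8.00, 8.39 and 8.14 in NTC (log2 FC -1.42, SE 0.16, adjusted p = 3.86e-06), and its NTC e2 values of 8.02, 8.17 and 8.48 were like those of the first experiment. Psy1 had 6.74, 6.79 and 6.60 after JA, against 8.32, 8.54 and 8.12 in NTC (log2 FC -1.62, SE 0.131, adjusted p = 4.98e-08), but 6.97, 6.90 and 6.92 in NTC e2, against which it was not called (-0.22). The hydroxylase CYP97C11 and the cleavage enzyme CCD1-2 were lower at -1.06 and -1.13, the first not called without JA replicate 3 (-0.97) or NTC replicate 2 (-0.98) and the second not called against NTC e2 (-0.98). In 11 of the 13 probe sets the highest NTC array was replicate 2.

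Decreases also prevailed in light signalling and greening. Of 16 probe sets 7 were lower and 1 was higher, with a median log2 FC of -0.95, and against NTC e2 the counts were 9 and 1. NTC replicate 2 was the highest NTC array in 13 of the 16. GLK1, a transcription factor of chloroplast development, had 7.67, 7.79 and 7.67 after JA, against 8.68, 8.93 and 8.91 in NTC (log2 FC -1.13, SE 0.125, adjusted p = 2.9e-06). Its relative GLK2 had 3.07, 3.23 and 3.28 after JA, against 4.55, 5.52 and 4.31 in NTC (log2 FC -1.60, SE 0.272, adjusted p = 0.000404). HY5, which promotes light responses, had 4.14, 4.36 and 4.23 after JA, against 5.86, 6.33 and 5.22 in NTC (log2 FC -1.56, SE 0.228, adjusted p = 8.03e-05). In all 3 genes the groups did not overlap and the JA arrays lay within 0.25 of each other.

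AUREA and HO2, which make the phytochrome chromophore, were lower at -1.58 and -1.12, the blue-light receptor PHOT2 at -1.23 and protochlorophyllide reductase POR2 at -1.11. The exception was SGR1, a protein of chlorophyll breakdown, with 7.24, 7.06 and 7.32 after JA, against 4.50, 4.30 and 4.66 in NTC (log2 FC 2.72, SE 0.165, adjusted p = 1.13e-09). Of the 16, 12 were lower in JA than in Et and 1 was higher. Against SA 3 were lower in JA and 1 was higher, and 12 did not pass the test. After SA itself 5 of the 16 were called lower and 1 higher, with a median log2 FC of -0.74. The photosynthesis proteins themselves were not called in any of 9 probe sets, with a log2 FC between -0.39 and 0.01, and psaD of photosystem I had 12.77, 12.63 and 12.59 after JA, against 12.74, 12.71 and 12.66 in NTC. At an adjusted p below 0.05 and without regard to FC, SBPase of the Calvin cycle passed alone among them (-0.39, adjusted p = 0.0249).

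**Figure D5:**
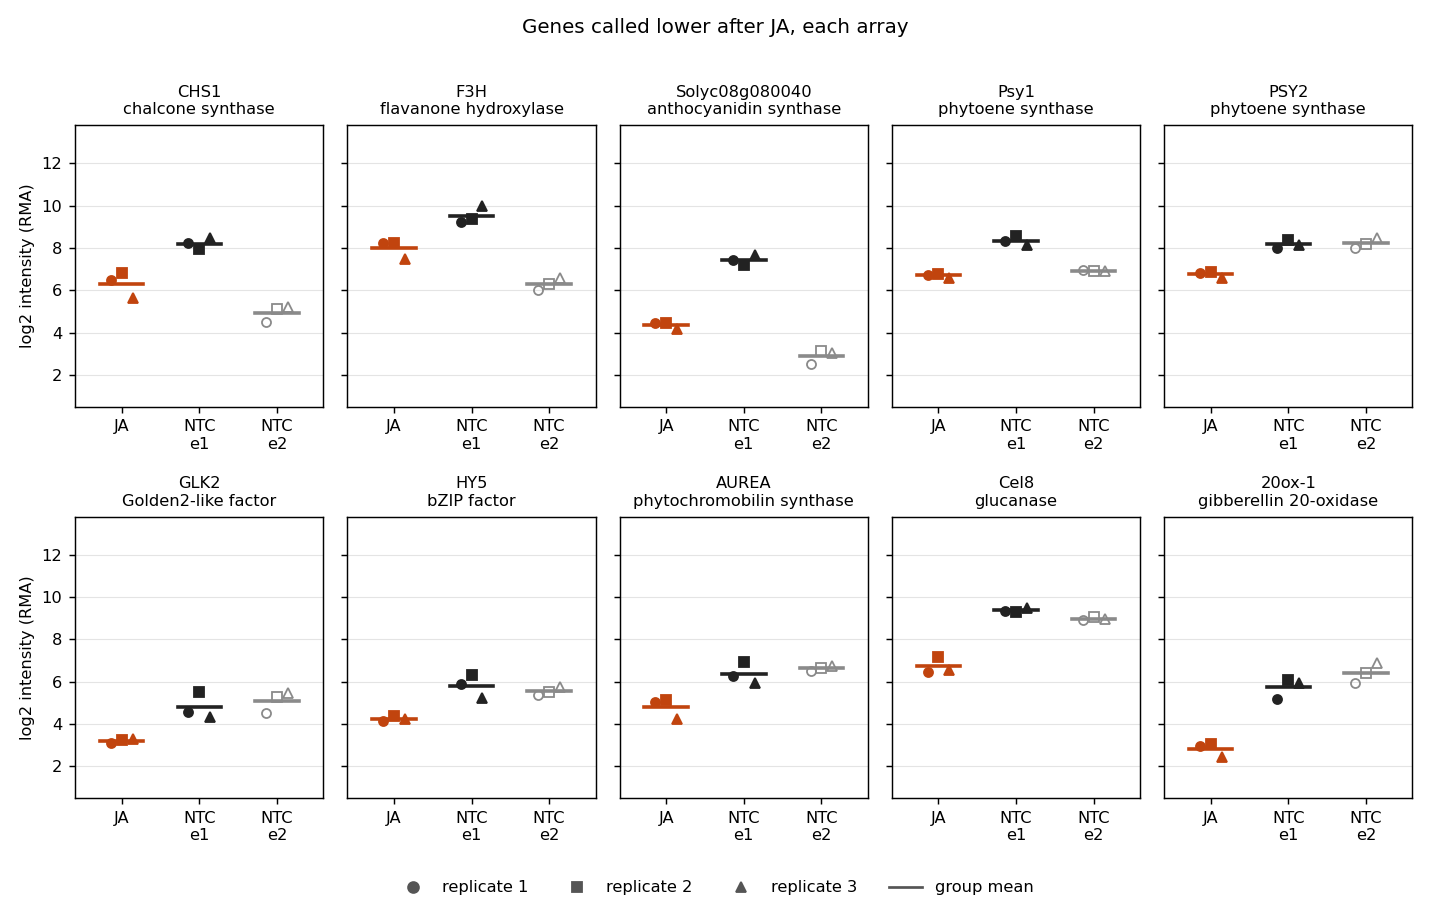
Log2 intensity (RMA, vertical axis) of 10 transcripts called lower after JA, on each JA array, each NTC array of experiment 1 (NTC e1) and each NTC array of experiment 2 (NTC e2), with the replicate number as marker shape and the group mean as a line. CHS1, F3H and Solyc08g080040 lie lower in NTC e2 than after JA, Psy1 lies near JA in NTC e2, and the other 6 are near the level of NTC e1.

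Of genes of growth, few were called. The gibberellin 20-oxidase 20ox-1, of gibberellin synthesis, had 2.93, 3.06 and 2.42 after JA, against 5.17, 6.05 and 5.94 in NTC (log2 FC -2.92, SE 0.249, adjusted p = 9.84e-08), the only call among 14 probe sets of gibberellin. Of those 14, 11 lay at or below the median level of all probe sets, which leaves little room for a decrease. Of 49 probe sets of the cell wall 6 were lower and 2 higher, with a median log2 FC of 0.00. The glucanase Cel8 had 6.43, 7.16 and 6.55 after JA, against 9.34, 9.30 and 9.50 in NTC (log2 FC -2.67, SE 0.178, adjusted p = 3.73e-09). The expansin EXPA4, which loosens cell walls, was lower at -2.01, and the galactosidases TBG5 and TBG6 at -1.64 and -1.16, the second not called without JA replicate 3 (-0.92). The pectin methylesterase PMEU1 was higher by 1.63, and the xyloglucan enzyme XTH16 by 1.91 but not against NTC e2 (-0.42). Of 19 probe sets of cell division, CycA1 (-1.15) and pcna (-1.07) were lower and none was higher. CycA1 was not called without JA replicate 1 (-0.97), nor pcna without JA replicate 3 (-0.91) or NTC replicate 1 (-0.97). Of 27 of auxin, the response factor ARF4 was lower at -1.44 and the carrier PIN3 was higher by 1.03, which did not hold without JA replicate 2 (1.00) or 3 (0.99) or NTC replicate 2 (0.99), nor against NTC e2 (0.19).

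Nitrogen and sugar genes moved both ways, with 6 of 33 probe sets higher and 2 lower. Proline dehydrogenase, PDH, which breaks down proline, had 10.56, 10.24 and 9.79 after JA, against 6.30, 7.42 and 7.14 in NTC (log2 FC 3.25, SE 0.26, adjusted p = 4.25e-08). Against NTC e2 PDH was still called higher, but by 1.335, as the NTC of experiment 1 differed from NTC e2 by -1.91. Formate dehydrogenase, fdh, had 11.17, 11.01 and 11.37 after JA, against 8.08, 7.75 and 8.80 in NTC (log2 FC 2.97, SE 0.261, adjusted p = 1.36e-07). In each the JA arrays were all above NTC. The transaminase GABA-TP1 was higher by 2.15, the sucrose synthase sus3 by 1.84, the amino acid permease AAP2 by 1.62 and glutamate dehydrogenase gdh1 by 1.48. The ammonium transporters AMT1-2 and AMT1-3 were lower at -1.84 and -1.60. Of 14 probe sets of cytokinin, 8 of them at or below the median level of all probe sets, 3 were higher and none lower. They were 2 cytokinin oxidases, which degrade the hormone, SlCKX4 (log2 FC 3.05) and SlCKX2 (1.72), and LOG6 (1.65), which activates it. In the list of 27 stress and detoxification probe sets, besides MIOX, the superoxide dismutase SODCC.1 (1.15) and FLACCA, of abscisic acid synthesis (1.68), were higher and GME2, of ascorbate synthesis, was lower (-1.34).

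The largest decreases were mostly of genes that the sources used here do not name. LOC101250059 had 2.64, 3.88 and 3.07 after JA, against 7.51, 7.78 and 7.39 in NTC (log2 FC -4.36, SE 0.249, adjusted p = 4.86e-10), followed by LOC101251407 (-4.31) and LOC101246713 (-4.04). Each lay far above the array medians in NTC and near them after JA. Next came LOC101247117 (-3.42), LOC101260093 (-3.34), LOC101251538 (-3.30), LOC101267538 (-3.17) and LOC101262470 (-3.15). The only named gene among the 10 largest decreases with a symbol was the polygalacturonase LOC101261316, a pectin-degrading enzyme, with 3.44, 2.83 and 2.99 after JA, against 6.32, 6.80 and 6.36 in NTC (log2 FC -3.40, adjusted p = 5.44e-10). It was also lower after SA (-3.08) and Et (-3.07), and the direct differences of JA from both did not pass the test. LOC101257156 was lower at -3.18 but had 2.08, 2.64 and 2.74 in NTC e2, below its JA arrays of 6.11, 6.16 and 4.47.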

How the data were processed

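Leaf RNA was measured on 21 arrays in 7 groups of 3, each array a pool of 10 plants. The authors processed the scans by RMA (background correction, normalization, summary of probes) in Expression Console and deposited log2 intensities for 67795 probe sets. These ranged between 0.956 and 13.8, and array medians between 2.63 and 2.85. The program's version was not stated, and with 3 arrays a group the replicate number sets the precision.

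A single limma 3.58.1 fit in R 4.3.3 gave each group its mean and used a constant empirical Bayes prior. P-values were two-sided and were adjusted by Benjamini-Hochberg over all probe sets. In data simulated for JA minus NTC over 67795 probe sets, 37 of 50 changes of log2 1.2, 47 of 50 of 1.5 and 50 of 50 of 2 and of 3 were recovered, with 2 false calls. The simulated noise was independent and normal, with the same spread on every array for a given probe set. It held no differences between arrays or NTC groups like those above, so these rates do not measure error in the real comparison. Replicate numbers were not taken to pair arrays, since the labels tie them to no shared batch. The residuals of same-numbered JA and NTC arrays correlated across probe sets at 0.158, 0.159 and -0.001. For JA replicates 1 and 2 the NTC array of the same number was the best match, and for replicate 3 it was not. A fit with a replicate block is therefore among the alternatives. The methods call the pools biological replicates without saying whether they were grown or treated apart, so p-values measure the spread between pools. The labels call all plants sprayed, whereas the methods describe a sealed chamber for Et.

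Symbols came from the array annotation, which gives 1 symbol to 23194 probe sets, more than one to 170 and no symbol to 44431. RefSeq (SLM_r2.1) served for current symbols, chromosomes and gene order, and held 23185 of the symbols. No coordinates are given because no source names the build behind the array. Other names came from the study's lists for BP178, flg15 and SA, used for names only. A list for JA was not used here.

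Members, lists and tests were chosen with earlier results of these data known. The genes named are the 15 largest increases and 10 largest decreases with 1 symbol whose arrays do not overlap, the JA synthesis and signalling lists, up to 4 called members per list and direction, and the 5 largest differences from SA and from Et each way. Other list members, the gene windows and the genes in the closing section were named after their values were seen.

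Alternatives were quantile normalization, centring of arrays on their medians, removal of the dimmest 25% of probe sets, fits on fewer arrays, a trended robust prior, array weights, a replicate block, other thresholds, other NTC arrays and leaving out each array.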

Additional observations from a re-analysis of the deposited data

How the results depend on the processing

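The 1109 increases and 1153 decreases stayed within 1.5 times under every alternative run other than those named here. An FC of at least 4 left 368 higher and 137 lower, no minimum FC gave 2544 and 3206, and the NTC of experiment 2 alone, an alternative added after seeing the data, gave 1561 and 1935. Leaving out each array in turn gave 1030 to 1210 higher and 954 to 1349 lower, the lowest count of decreases being without NTC replicate 2. With the replicate block, the counts were 1104 and 1176, and of 158 named or listed probe sets it changed the call of MAPK4 alone. Quantile normalization, the dimmest probe sets left out, the arrays of experiment 1 alone and the trended robust prior changed none of the 158 calls. Leaving out JA replicate 3 ended 13 of them. With the NTC of experiment 2 alone the direction turned for XTH16 (-0.42), CHS1 (1.37), F3H (1.70), Solyc08g080040 (1.47), Solyc02g085020 (2.46), LOC101257156 (3.09) and LOC101244399 (0.20), and with both NTC groups together for F3H (0.09). With the NTC of experiment 2 alone 12 further calls were lost, those of ACS3 (0.19), PIN3 (0.19), WRKY3 (0.51), WRKYIId-4 (0.60), TCP20 (0.78), DREB3 (0.84), MAPK4 (0.89), CHS2 (-0.10), Psy1 (-0.22), PR-P69 (-0.36), dxs (-0.59) and CCD1-2 (-0.98), and with both NTC groups together 15 were lost. Under each of these 2 settings 2 probe sets gained a call. Acx1A was called higher, with 1.49 against the NTC of experiment 2 alone and 1.16 against both NTC groups together. For loxF, called lower, these values were -2.14 and -1.3. Why the NTC groups differ was not tested. The list counts that moved most with the NTC of experiment 2 were flavonoids (none lower, as with both NTC groups together), cell wall (14 lower), cell division (6 lower) and ethylene signalling (10 higher).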

Other observations

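Some transcription factors outside the lists above were called after JA and are named here after their values were seen. Those named by the study had been selected on other treatments of these arrays, mostly SA. The ethylene response factor Solyc04g071770 had 9.30, 9.17 and 9.48 after JA, against 3.10, 2.67 and 4.34 in NTC (log2 FC 5.95), and had a log2 FC of 7.40 after SA. A WRKY40-like factor, LOC101246812, had 7.55, 8.05 and 7.55 after JA, against 2.28, 2.31 and 2.78 in NTC (5.26), with 2.25 after SA. Of NAC factors, Solyc05g007770 was higher by 5.13, Solyc07g063410 by 4.95 and NAC1 by 3.98, and the zinc finger factor CZFP1 was higher by 3.57. In the same order these had a log2 FC of 2.36, 2.62, 4.62 and 4.29 after SA, and of 4.24, 2.06, 2.25 and 1.53 after Et. Solyc02g071730, named as the MADS-box factor TAG1 of flower organs, had 7.73, 7.47 and 8.30 after JA, against 2.20, 2.34 and 2.80 in NTC (5.39). The carbonic anhydrase ca3 had 7.27, 6.57 and 7.40 after JA, against 1.88, 1.96 and 1.87 in NTC (5.18). The bHLH factor LOC101254527, named as TT8-like, after a regulator of flavonoids in Arabidopsis, was lower at -1.74 over NTC of experiment 1, but had 0.56 over NTC e2 and was not called there.

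Some transcripts moved in opposite directions after JA and SA. det2, a steroid reductase of brassinosteroid synthesis, had 8.98, 9.11 and 8.95 after JA, against 7.79, 7.30 and 8.09 in NTC (log2 FC 1.29), and had -4.04 after SA. The vacuolar aquaporin TIP was at -1.29 after JA and 3.28 after SA, and was not called after JA against NTC e2 (-0.69).

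Of 16 probe sets of MAP kinase cascades 3 were higher after JA, MKK4 by 2.12, MAPK8 by 1.22 and MAPK4, which was not called without JA replicate 3 (0.65) or NTC replicate 1 (1.04) or 3 (1.02), or against NTC e2 (0.89). Of 24 probe sets of TCP factors, which shape leaf growth, 4 were higher and 1 was lower. Both probe sets of TCP10 were higher (1.44 and 1.37), TCP5 by 1.80 and TCP20 by 1.20 (0.78 and not called against NTC e2), and TCP17 was lower (-1.04), but not called without JA replicate 3 (-0.92) or NTC replicate 2 (-0.77).

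Of probe sets without a symbol or name, the largest increase and decrease were probe set 20294584, with 10.47, 10.75 and 10.66 after JA, against 2.23, 2.55 and 6.90 in NTC, and probe set 20390348, with 3.88, 4.94 and 3.10 after JA, against 8.40, 8.49 and 8.34 in NTC. The first showed the same high NTC replicate 3 as proteinase inhibitor I and mcpi.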
